A study of Mus musculus with 2 samples.

Results

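The genes described here make cholesterol, sense it, move it and release it, and their transcripts were compared between 2 mouse osteosarcoma cell lines, Dunn and LM8. Members were chosen by name, as the genes whose probe sets carry that gene's symbol alone. Of 32 listed genes, 29 had such a probe set, out of 18193 genes named on the array, and all 29 were measured on at least 1 probe set. The listed genes Acat2, Soat1 and Nr1h2 were not analysed here. Dunn is the parental line and is labelled non-metastatic. LM8 is a subline of Dunn and is labelled highly metastatic. Both were untreated and grown in the same serum-containing medium, and each contributed total RNA to 1 Affymetrix mouse expression array. The labels give no passage number or cell density. With 1 array per line there is no replicate spread and no test, so every fold below describes these 2 arrays only.

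Cells build cholesterol from acetyl-CoA through mevalonate, isoprenoid diphosphates, squalene and lanosterol. When sterols in the endoplasmic reticulum run low, Scap carries the membrane-bound transcription factor SREBP2 to the Golgi, where the site-1 and site-2 proteases cut it, and the freed fragment switches on the synthesis enzymes. Insig proteins hold Scap back when sterols are plentiful. Oxysterols activate the liver X receptors (LXR), which instead raise the efflux pumps Abca1 and Abcg1 and the ubiquitin ligase Mylip, which lowers lipoprotein uptake. The comparison asked how LM8 and Dunn differ along this route, and between its SREBP2-driven and LXR-driven arms.

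Synthesis enzymes were higher in LM8 along most of the route, and LXR genes were not. In LM8, 8 of 18 measured enzymes (44.4%) were higher by 2-fold or more and none was 2-fold lower, against 6.51% of all 11830 measured genes higher and 8.84% lower. The log2 ratio of LM8 over Dunn was above 0 in 16 of the 18, against 44.7% of all genes. The median of the enzymes was 0.98 and that of all genes -0.08. Of the 4 measured LXR genes (the receptor Nr1h3 with Abca1, Abcg1 and Mylip), none was 2-fold apart and their median was -0.66. That median turned to 0.07 in 1 of 10 alternative ways of processing. It includes Abcg1, which was above the floor in Dunn alone, so that its ratio could only be below 0. Over all 29 members, 9 were at least 2-fold higher and none 2-fold lower.

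The arrays as a whole set the scale for these values. A signal under an array's median, 21.1 for Dunn and 18.96 for LM8, was set to that floor, and probe sets under the floor on both arrays were left out as not measured. The 2 arrays were of 1 chip type and were hybridised and scanned on 1 day with 1 scanner. The 3' to 5' signal ratio, a sign of RNA integrity, was 0.708 and 0.789 for Gapdh and 1.26 and 1.16 for beta-actin in Dunn and LM8. Osteoblast markers such as Alpl, Col1a1 and Sp7 were above the floor in both lines, with 8 of 10 listed markers measured, of which Ibsp and Pth1r were 2-fold lower in LM8. Of all genes called, 42.4% were the higher ones, which became 56.9% with arrays centred on their medians 65.9% with scaling on hybridisation controls and 77.6% with a signal-dependent centring fitted above the floor. These scalings moved the median of all genes from -0.08 to 0.07, 0.16 and 0.17. Of 14 proliferation genes, 9 (64.3%) were higher in LM8 by 2-fold or more and none lower, against 6.51% and 8.84% of all genes. Their median was 1.55, and they were led by Ccna2 (195 in Dunn and 1167 in LM8), Bub1 (107 and 611), Ccnb2 (128 and 529) and Cdk1 (349 and 1439). Their part in the sterol gene results was not tested.

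**Figure D1:**
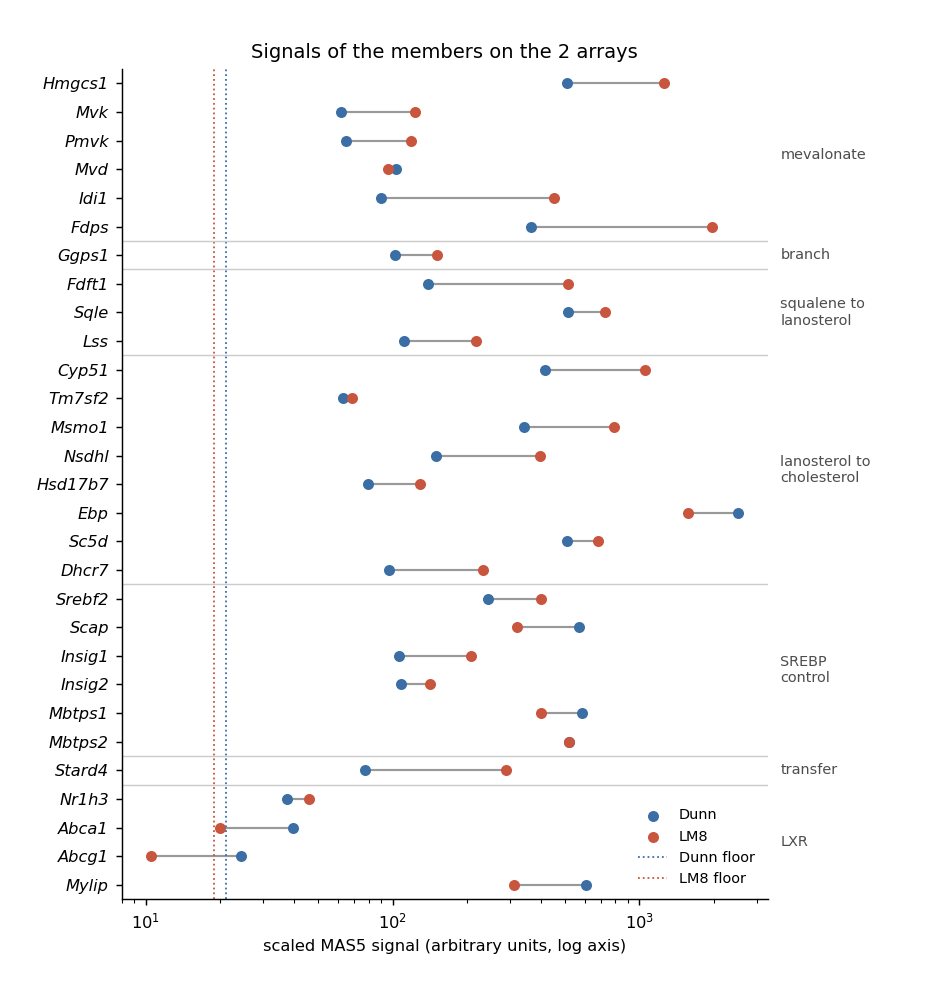
Signals of the 29 members on the 2 arrays, each on its brightest measured probe set, ordered along the pathway; the horizontal axis is the scaled MAS5 signal on a log axis, blue points are Dunn, red points LM8, and dotted lines the floors of the arrays. Enzymes from Hmgcs1 to Dhcr7 lay to the right in LM8 except Mvd and Ebp, while Mylip, Abca1 and Abcg1 lay to the left.

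Promoter sequences are shown for members that moved together and for 3 that did not, since SREBP2 acts on its promoters with the factor NF-Y. RefSeq windows of 300 bases on GRCm38.p6, from 250 bases before an annotated transcript start to 50 after it, were matched by symbol for 24 of the 29 members. No window was matched for Abcg1, Fdft1, Fdps, Sqle and Stard4. Both strands were searched for the sterol regulatory element TCACNCCAC and for the NF-Y box CCAAT, which reads ATTGG from the other strand. The LXR element, a repeat of the hexamer AGGTCA with a gap of 4 letters, was searched too. The stretches below run 5′ to 3′ on the gene's strand and end at the base before the start, with capitals marking matches, and for Dhcr7 the window with matches is the one shown. That Dhcr7 start lies inside the gene, downstream of its outermost start, and the Abca1 start also lies a short way inside the gene. The other 6 stretches end where the annotated gene begins. Their positions are Hmgcs1 on chr13:119690201-119690350 (plus strand), Idi1 on chr13:8885456-8885605 (plus strand), Msmo1 on chr8:64733579-64733728 (minus strand), Cyp51 on chr5:4104698-4104847 (minus strand), Dhcr7 on chr7:143830064-143830213 (plus strand), Ebp on chrX:8193513-8193662 (minus strand), Mylip on chr13:45389592-45389741 (plus strand) and Abca1 on chr4:53159896-53160045 (minus strand).
Hmgcs1: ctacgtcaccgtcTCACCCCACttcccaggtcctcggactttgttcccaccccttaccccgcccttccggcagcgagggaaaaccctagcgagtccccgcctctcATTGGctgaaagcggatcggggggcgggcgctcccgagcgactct
Idi1: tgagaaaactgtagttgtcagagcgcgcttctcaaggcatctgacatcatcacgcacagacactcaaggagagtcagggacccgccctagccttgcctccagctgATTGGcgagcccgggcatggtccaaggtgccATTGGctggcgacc
Msmo1: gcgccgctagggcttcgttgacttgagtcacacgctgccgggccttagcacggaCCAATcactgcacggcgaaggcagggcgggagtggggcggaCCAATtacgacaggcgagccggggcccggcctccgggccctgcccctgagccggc
Cyp51: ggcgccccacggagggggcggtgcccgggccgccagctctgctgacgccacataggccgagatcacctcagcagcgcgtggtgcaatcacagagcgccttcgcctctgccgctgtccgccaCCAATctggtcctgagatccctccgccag
Dhcr7: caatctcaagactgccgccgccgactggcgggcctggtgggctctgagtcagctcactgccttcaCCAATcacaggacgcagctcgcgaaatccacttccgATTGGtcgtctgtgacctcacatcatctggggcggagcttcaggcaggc
Ebp: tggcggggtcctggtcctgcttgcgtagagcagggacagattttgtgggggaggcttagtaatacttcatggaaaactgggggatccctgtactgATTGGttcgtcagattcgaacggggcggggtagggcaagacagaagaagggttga
Mylip: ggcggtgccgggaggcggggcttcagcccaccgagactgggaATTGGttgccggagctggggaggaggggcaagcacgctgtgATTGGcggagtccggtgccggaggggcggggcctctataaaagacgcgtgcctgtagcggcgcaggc
Abca1: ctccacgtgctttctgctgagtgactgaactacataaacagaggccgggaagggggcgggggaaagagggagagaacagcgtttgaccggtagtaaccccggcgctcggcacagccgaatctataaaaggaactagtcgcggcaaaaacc

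All 15 synthesis enzymes with a window had the NF-Y box in at least 1 window, against 43.2% of the 9614 measured genes with one. Counted by window it stood in 15 of the 18 of these enzymes, against 37.4% of all 32851 windows, since Dhcr7 has 3 windows and Pmvk 2, and only 1 of each held it. Among the 6 SREBP control genes, 3 had it (Srebf2, Insig1 and Insig2). Of the 3 LXR genes with a window, Mylip had it and Abca1 and Nr1h3 did not. Hmgcs1 was the only member with the sterol element as spelled, TCACCCCAC, at positions -137 to -129 from the start and clear of its NF-Y boxes. That motif stood in 1.24% of all windows. The LXR element as spelled, an exact repeat, was in no member's window and in 0.0152% of all windows. It was in no window of the 9614 measured genes either, so its absence does not set the members apart. Repeats that differ from these letters were not searched for. A match is a description of these letters and not a binding site. Ebp and Mvd, which were not higher in LM8, carried NF-Y boxes as did Idi1 and Hmgcs1, so the box did not separate enzymes by their ratio.

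**Figure D2:**
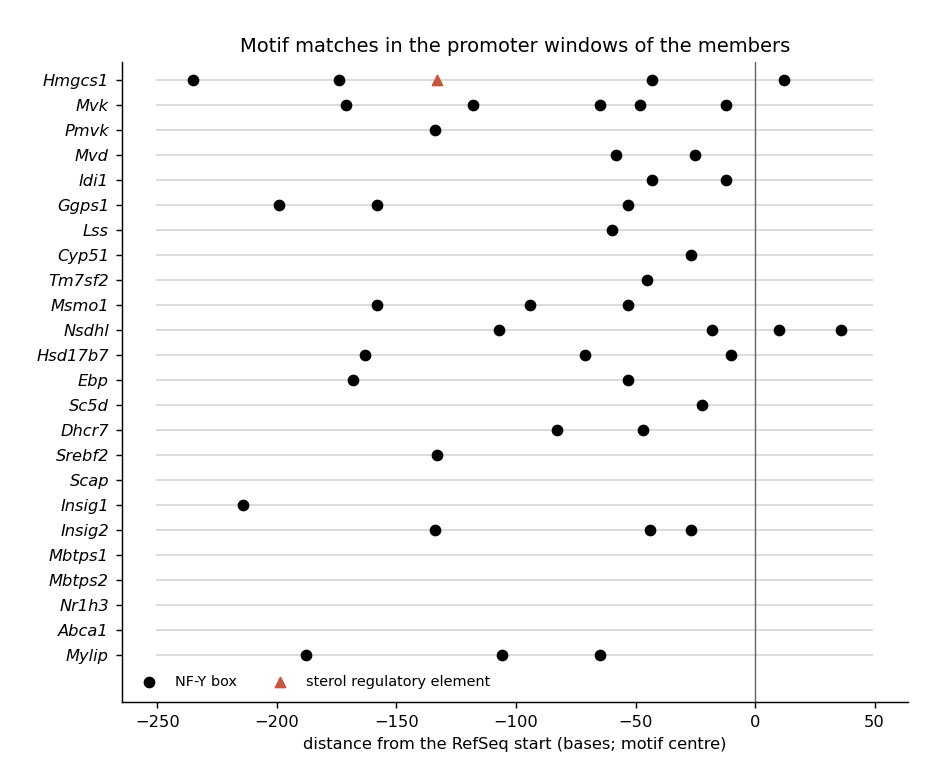
Positions of motif matches in the promoter windows of 24 members; the horizontal axis is the distance of the motif's centre from the RefSeq start in bases, each grey line is a gene's window, black circles are NF-Y boxes and the red triangle the sterol regulatory element of Hmgcs1. All 15 enzymes from Hmgcs1 to Dhcr7 had at least 1 circle, and Scap, Mbtps1, Mbtps2, Nr1h3 and Abca1 had none.

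The mevalonate arm, which turns acetyl-CoA into farnesyl diphosphate, held the 2 largest ratios of all members. Among its 6 measured enzymes 3 (50%) reached 2-fold, all higher in LM8, against 6.51% of all genes higher. Of its 13 measured probe sets 8 (61.5%) did, against 6.16% of all named probe sets. Those probe sets belong to Hmgcs1, Mvk, Idi1 and Fdps, with several from Hmgcs1 alone. Hmgcs1, which condenses acetyl-CoA with acetoacetyl-CoA, had a signal of 508 in Dunn and 1261 in LM8 and was 2.48-fold higher. Its 3 other bright probe sets gave log2 ratios from 1.30 to 1.56, and 1 more, at the floor in Dunn, gave 0.08. The mevalonate kinase gene Mvk had signals of 62.1 and 123, 1.98-fold higher, and 31.95 and 124 on its other probe set, a log2 ratio of 1.96. Pmvk, the phosphomevalonate kinase, had 64.8 and 119, 1.83-fold higher. On their brightest probe sets these kinase genes lay short of the 2-fold mark, while the other Mvk probe set was beyond it. Under 10 other ways of processing, Mvk reached 2-fold in 6 and Pmvk in 2. With the floor at the 75th percentile the log2 ratio of Mvk fell to 0.38.

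Mvd, which makes isopentenyl diphosphate by decarboxylation, had a signal of 103 in Dunn and 95.6 in LM8, a log2 ratio of -0.11, and its other probe set gave 0.47. The sign of Mvd changed between scalings, which ran from -0.06 to 0.14. Idi1, the isomerase that follows, had signals of 89.96 and 449 and was 4.99-fold higher, and its other probe set gave a log2 ratio of 2.10. Fdps, which joins isoprenoid units into farnesyl diphosphate, had signals of 364 and 1964, a log2 ratio of 2.43. On the brightest probe sets Idi1, after the Mvd step, differed far more between the arrays than Mvd did. Pmvk, before the Mvd step, had a log2 ratio of 0.87, which fell to 0.31 with the floor at the 75th percentile.

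At the farnesyl branch point the sterol side showed the larger difference. Fdft1, the squalene synthase that commits farnesyl diphosphate to sterols, had 139 in Dunn against 515 in LM8, a log2 ratio of 1.89, and 1.46 on its other measured probe set. Ggps1, which instead makes geranylgeranyl diphosphate for protein prenylation, had signals of 102 and 152 and a log2 ratio of 0.57. The 4 probe sets of Ggps1 spread from -0.18 to 0.95, so its value depends on the probe set. Among 11 other measured genes that use isoprenoids for prenylation, dolichol or ubiquinone, none was 2-fold apart. Of all genes 6.51% were higher and 8.84% lower, so none in a list this short is no result about it. The median of this list was 0.23, against -0.08 for all genes.

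Squalene to lanosterol takes 2 enzymes, and neither was 2-fold apart. Sqle, the squalene epoxidase and a known rate-controlling enzyme, had 514 in Dunn against 723 in LM8 and was 1.41-fold higher on its 1 probe set. Lss, the cyclase that forms lanosterol, had signals of 111 and 218 on its brightest probe set, 1.96-fold higher. Another measured probe set of Lss opposed it, with 57.7 and 34.7 and a log2 ratio of -0.74. The direction of Lss is therefore not settled by these arrays, whereas the Sqle difference was small and rests on 1 reading per line.

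From lanosterol to cholesterol, 2-fold or more separated LM8 from Dunn for 4 of 8 enzymes (50%). All 4 were higher in LM8, against 6.51% of all genes higher. Cyp51, the lanosterol demethylase, had signals of 415 and 1050, 2.53-fold higher, with 1.48 and 0.40 as log2 ratios on its other probe sets. The 3 catalytic genes of C4 demethylation all had ratios above 0. Msmo1, the sterol methyl oxidase once named Sc4mol, had signals of 341 and 792, 2.32-fold higher. Its other probe set had 14.2 in Dunn, under the floor, and 19.6 in LM8, just above it. The log2 ratio of -0.10 on that probe set has its sign only because the Dunn floor is the higher one. Nsdhl, the decarboxylating dehydrogenase of this step, had 149.8 and 396, 2.65-fold higher. Hsd17b7, the ketoreductase, had 79.5 and 129, 1.63-fold higher, but its 4 probe sets spread from -0.58 to 0.81 in log2 ratio.

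The other enzymes between lanosterol and cholesterol were split. Dhcr7, which makes cholesterol from its 7-dehydro precursor, had 96.5 in Dunn against 233 in LM8, 2.42-fold higher. Tm7sf2, a sterol C14 reductase, had 62.8 and 68.7, a log2 ratio of 0.13. Ebp, the sterol isomerase, went the other way with 2514 in Dunn and 1577 in LM8, 1.59-fold lower, on 1 probe set. Sc5d, the C5 desaturase, had 510 and 678 on its brightest probe set and log2 ratios of -0.48 and -0.87 on the others. Ebp and Mvd were the 2 enzymes with ratios below 0.

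**Figure D3:**
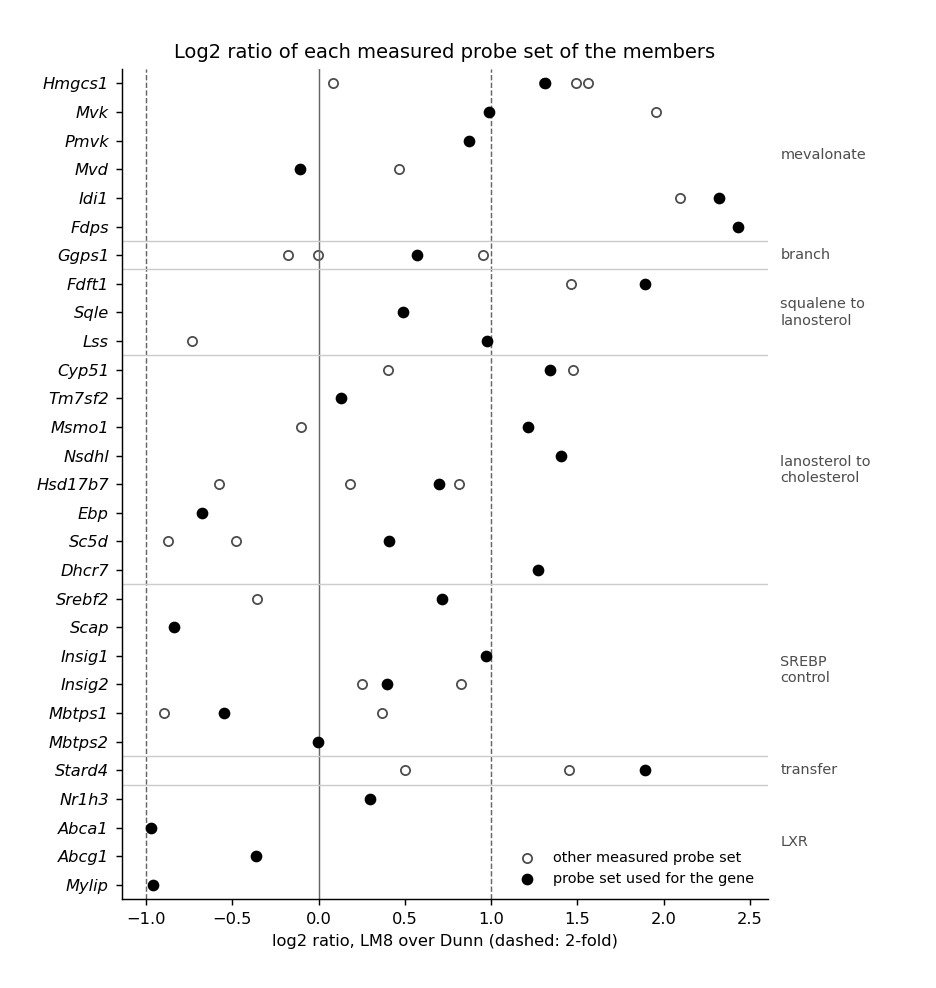
Log2 ratio of LM8 over Dunn for each of the 56 measured probe sets of the 29 members; filled points are the brightest probe set, used as the gene's value, open points the others, and dashed lines mark 2-fold. The points of Idi1 and Fdft1 stayed beyond 2-fold, while those of Lss, Hsd17b7, Sc5d, Srebf2 and Mbtps1 fell on both sides of 0.

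Probe sets of a member often differed, which is the only spread available for a single gene here. Of 15 members with 2 or more measured probe sets, 8 had log2 ratios of both signs (Mvd, Ggps1, Lss, Msmo1, Hsd17b7, Sc5d, Srebf2 and Mbtps1). For Msmo1 the negative sign comes only from the higher floor of Dunn. Probe sets of 1 gene had a median SD of 0.63 in log2 ratio over these 15 and 0.30 over 5521 genes of the array. Of the 9 members at least 2-fold higher, 5 were so on every measured probe set (Idi1, Fdps, Fdft1, Nsdhl and Dhcr7), of which Fdps, Nsdhl and Dhcr7 had only 1. Counted by probe set, 15 of 38 measured for the synthesis enzymes (39.5%) were at least 2-fold higher and none was lower, against 6.16% of 21460 named probe sets higher. The 9 higher members lie on 8 chromosomes.

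Genes of the SREBP2 control circuit had a median of 0.20, below that of the enzymes. None of 6 was 2-fold apart, where 6.51% of all genes were higher and 8.84% lower. Srebf2, which encodes SREBP2, had 243 in Dunn against 399 in LM8, 1.64-fold higher, but its other probe set had 260 and 203, a log2 ratio of -0.35. Scap, the SREBP escort, had 570 and 319, 1.78-fold lower. Mbtps1, the site-1 protease, had 584 and 399, 1.46-fold lower, with probe sets from -0.90 to 0.37. Mbtps2, the site-2 protease, had 520 and 520, and its ratio changed sign between scalings. No member that carries or cuts SREBP2 was higher in LM8 on its brightest probe set.

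The Insig genes encode the retention proteins, of which Insig1 is itself an SREBP target. Insig1 had signals of 107 and 209, 1.96-fold higher in LM8, on 1 probe set. Insig2 had 108 and 142, 1.32-fold higher, with 3 probe sets from 0.25 to 0.82. Stard4, a soluble sterol carrier and SREBP2 target, had 77.6 and 288, a log2 ratio of 1.89, with 1.45 and 0.50 on its other probe sets. On the brightest probe sets Insig1, with a log2 ratio of 0.97, lay near the enzyme median of 0.98. Stard4 lay above that median and Insig2, with 0.40, below it.

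The LXR arm had 3 of 4 genes with ratios below 0, and all but Mylip were dim. Of these 3, Abcg1 was above the floor in Dunn alone, so with these floors its ratio could only be below 0. Mylip, the ligase that sends lipoprotein receptors to degradation, was the bright member, with 606 in Dunn and 312 in LM8, 1.95-fold lower on 1 probe set. Abca1, the pump that loads cholesterol onto apolipoprotein A-I, had 39.4 and 20.1, 1.96-fold lower, with LM8 just above its floor. Its other 2 probe sets lay under the floor on both arrays. Abcg1, which exports sterol to lipoprotein particles, had 24.4 in Dunn and was under the floor in LM8, at least 1.29-fold lower. Nr1h3, the receptor LXR alpha, had 37.3 and 45.9, a log2 ratio of 0.30.

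The difference between the median of the synthesis enzymes and that of the LXR genes was 1.64 on the log2 scale. Mylip and Abca1 stayed below 0 in all 5 other scalings. With a signal-dependent centring fitted only on probe sets above the floor, Abcg1 turned to 0.65, Abca1 to -0.25 and the LXR median to 0.07, and the difference between the lists fell to 0.95. Macrophages are known for high LXR target levels, and all 8 of their measured markers had ratios below 0 too. Of these, Cd68, Adgre1, Tyrobp and Lyz2 were above the floor in Dunn alone, so their ratios could only be below 0. The 8 measured of 12 listed markers had summed signals of 1014 in Dunn and 514 in LM8, mostly from Fcer1g (716 and 387). Csf1r and Lyz2 were at least 2-fold lower, but dimmer probe sets of Csf1r gave log2 ratios of 0.48 and -0.32. The defining markers Ptprc, Itgam, Aif1 and Ctss were under the floor on both arrays. The part of such cells in the Abca1 and Abcg1 values was not tested. In bulk RNA, fewer cells of a type and less RNA per cell cannot be told apart.

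**Figure D4:**
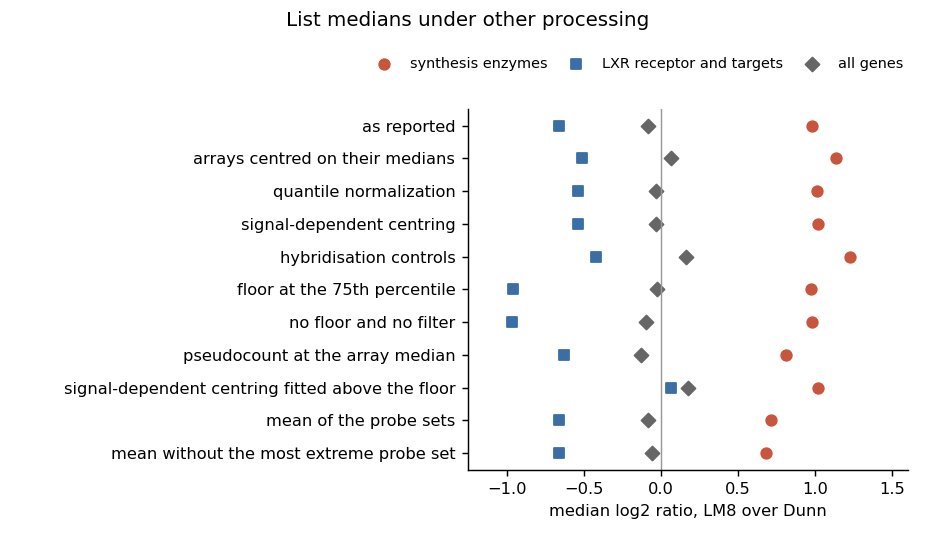
Median log2 ratio of LM8 over Dunn for 18 synthesis enzymes (red circles), 4 LXR genes (blue squares) and all genes (grey diamonds), as reported and under 10 other ways of processing. The enzyme median ran from 0.68 to 1.22 and the LXR median from -0.97 to 0.07, above 0 in 1 of them, and with the floor at the 75th percentile the LXR value rests on Mylip alone.

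Other genes of the route outside the member list gave smaller differences. Of 5 further measured genes of sterol synthesis and SREBP2 action, none was 2-fold apart, against 6.51% of all genes higher and 8.84% lower. The median of these 5 genes was 0.59. They included Erg28, the scaffold of the C4 demethylation enzymes, with 243 and 398, and Tmem97, a sterol-regulated membrane protein gene, with 319 and 565, 1.77-fold higher. Of 14 fatty acid targets of SREBP1, 4 (28.6%) were at least 2-fold higher and none lower, against 6.51% and 8.84% of all genes. Their median was 0.38. The higher ones were Elovl6 (133 and 336), Fads2 (264 and 580), Fads1 (498 and 1053) and Acss2 (103 and 215), which elongate or desaturate fatty acids or make acetyl-CoA. For Elovl6 and Fads2 a dimmer probe set opposed this, with log2 ratios of -0.38 and -0.36. Fasn, the fatty acid synthase gene, had 587 and 534. Srebf1, a target of LXR, had 169.9 and 192.

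Of 22 genes that move sterols through lipoproteins and membranes, 1 (4.55%) was at least 2-fold higher and 2 (9.09%) lower, with a median of -0.11. These shares were close to the 6.51% and 8.84% of all genes and are no result about these genes. Lrp8, a lipoprotein receptor gene, was under the floor in Dunn and had a signal of 128.5 in LM8, at least 6.10-fold higher, and its other probe sets gave at least 0.27 and 1.26 in log2 ratio. Nceh1, a cholesteryl ester hydrolase gene, had 78.1 and 21.0, 3.72-fold lower, but its probe sets spread from -1.89 to 0.54. Gramd1b, which takes sterol from the plasma membrane to the endoplasmic reticulum, was at the floor in LM8 against 54.9 in Dunn, at least 2.90-fold apart. The lysosomal exporters Npc1 (43.3 and 37.2) and Npc2 (1789 and 1543) were 1.16-fold apart, but a dimmer probe set of Npc2 gave -1.74 in log2 ratio.

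Of the genes that handle oxysterols, the natural LXR ligands, 3 were measured. At least 2-fold lower in LM8 were 2 of them (66.7%), against 8.84% of all genes. Cyp27a1, the sterol 27-hydroxylase, had 356 in Dunn and 34.01 in LM8, 10.5-fold lower on 1 probe set. Hsd3b7, which acts after it in bile acid synthesis, had 44.8 against the floor in LM8, at least 2.36-fold lower. Since Hsd3b7 was above the floor in Dunn alone, its ratio could only be below 0. Apart from Hsd3b7, the count of lower genes in this list rests on Cyp27a1. Ch25h, the cholesterol 25-hydroxylase, had 80.5 and 132. Further LXR targets, of which 5 were measured, had a median of 0.10 and 3 ratios above 0, against -0.66 and 1 ratio above 0 for the 4 LXR members. Among them only Pltp, the phospholipid transfer protein gene, was 2-fold apart, which is 20% of the list against 8.84% of all genes lower. Pltp had 2991 and 1020, 2.93-fold lower, and -2.14 in log2 ratio on its other probe set.

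Sterol-regulated degradation in the endoplasmic reticulum gave 1 of 11 genes (9.09%) at least 2-fold higher and 1 (9.09%) lower, with a median of 0.04. Such shares were close to the 6.51% and 8.84% of all genes and are no result about this list. Ufd1, a cofactor that extracts ubiquitinated proteins, had 190 and 441, 2.32-fold higher. Rnf139, a sterol-sensing ubiquitin ligase gene, had 497 and 229, 2.17-fold lower, while a dim probe set of it gave 0.25.

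**Figure D5:**
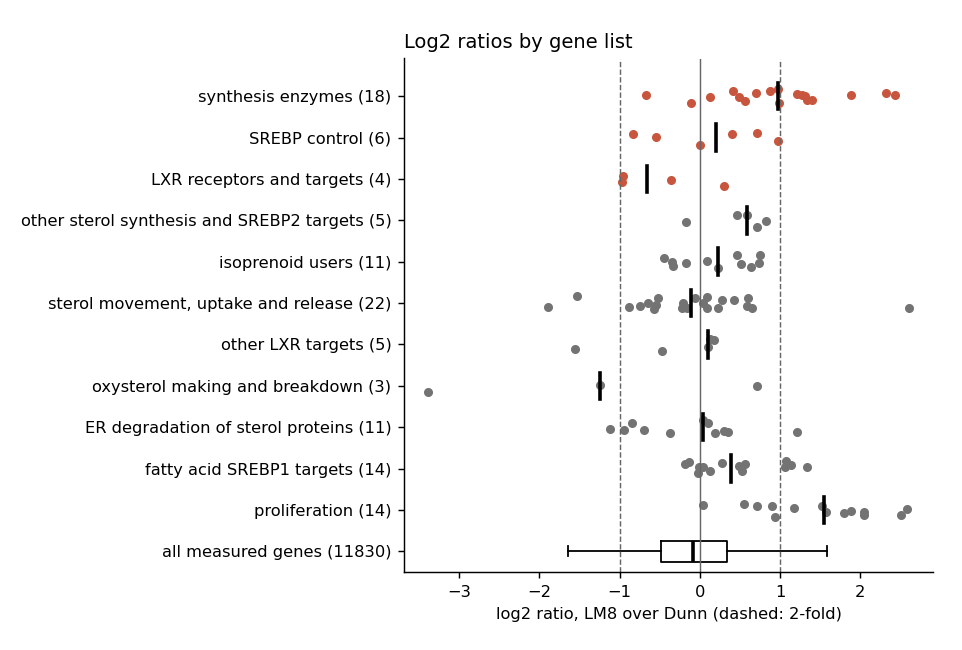
Log2 ratios of LM8 over Dunn by gene list, with the number of measured genes in brackets; red points are members, grey points genes of the other lists, black bars list medians, dashed lines 2-fold, and the box for all 11830 genes spans the quartiles with whiskers covering the central 95%. The synthesis enzymes had a median of 0.98, the proliferation genes 1.55 and all genes -0.08.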

How the data were processed

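Total RNA of 2 cell lines was hybridised to 1 Affymetrix array each. The authors deposited 1 intensity per probe set, a linear signal made with MAS5, as the submitters' processing notes name it. Its version and settings are not given in the sources used here. The deposited experiment sheets, with other text on chip and scan, gave the hybridisation and scan days. Without the 64 control probe sets, signals were put on a common 2% trimmed mean, and each array's median served as floor. Probe sets with 1 gene symbol (34958 of 35890 annotated) were named through the platform's annotation and a GRCm38.p6 gene table. Each gene was read on its brightest measured probe set, by mean log2 over both arrays. Where an array lay at the floor, the fold is a bound and is written "at least N-fold". Genes were counted as called at 2-fold or more. Members, lists, motifs and alternatives were chosen with earlier results of these data known. All members are named, and from each other list up to 4 genes per direction that were 2-fold apart; others are named as background. Signals are not compared between probe sets. Other settings tried were 4 scalings, 3 treatments of dim signals, 2 gene summaries and 2 counting rules. The signal-dependent centring was first fitted on probe sets above the floor and then, after its output was seen, on all probe sets; both are given. The steps were tested on simulated data in which only bright genes were changed, by a fold well above 2. Recovery of dim genes and of folds near 2 was not tested. Tables were made in Python 3.11.15 (pandas 2.3.3, numpy 2.4.6), centring used statsmodels 0.14.6, trimming used scipy 1.17.1, and plots used matplotlib 3.10.9.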

Additional observations from a re-analysis of the deposited data

How the results depend on the processing

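With 1 array per line, nothing below measures replicate error. The synthesis enzymes at least 2-fold higher, 8 as reported, became 3 with a 3-fold rule and 5 when every probe set had to be 2-fold apart, and all members went from 9 to 4 and 5. Dropping each gene's most extreme probe set left 6 of each, while arrays centred on their medians or scaled on hybridisation controls gave 11 enzymes and 13 members. Counting each measured probe set of the members on its own, chosen after seeing the data, gave 17. Without floor and filter 1 member, Abcg1, was 2-fold lower. The genes of the whole array that were higher, 770, became 1237 with hybridisation controls, 377 with the floor at the 75th percentile, 2553 without floor and filter and 294 with the 3-fold rule; those lower, 1046, became 639, 397, 3351 and 336. The LXR median is not stable: the signal-dependent centring as first run, fitted only on probe sets above the floor, turned it to 0.067, cut its difference from the enzyme median to 0.95 and gave 2515 higher genes. That fit was replaced by one on all probe sets after this output was seen, so it is kept here as an added alternative. The other 9 settings kept the signs of both medians. Of 286 ratios of single members over all 10, 263 moved by less than 0.30 and 22 by more. The last, Msmo1, turned from 1.21 to -0.10 when its most extreme probe set was dropped. The probe set left for Msmo1 in that setting was under the floor in Dunn, and the higher Dunn floor gave the value its sign. Other members changed sign as well. In that setting Lss turned from 0.97 to -0.74, Srebf2 from 0.72 to -0.35 and Sc5d from 0.41 to -0.03, and Sc5d went to -0.31 with the mean of its probe sets. Abcg1 turned from -0.36 to 0.65 with the centring fitted above the floor, and Mvd and Mbtps2 changed sign near 0 under other settings. The floor at the 75th percentile left 25 of the 29 members measured. No paired analysis was possible because each line has 1 array.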

Other observations

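Across the whole array, the NF-Y box was in the promoter window of 53.7% of the 609 genes at least 2-fold higher in LM8 that had a window, and of 43.0% of the 853 genes at least 2-fold lower. Of all 9614 measured genes with a window 43.2% had the box, so the lower genes lay at the share of all. The sterol regulatory element as spelled was in 1.64% of the higher genes (10) and 0.821% of the lower ones (7). It was in 1.48% of the 9614, and the counts behind these shares are small. These shares are descriptions of 2 arrays and were not tested.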
